A study of Mus musculus with 10 samples.

Results

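The 500 strongest CUT&Tag regions were chosen by measured reads: they are the 500 of 69418 regions in the deposited table with the most reads summed over the 4 CUT&Tag libraries. The libraries came from neural stem and progenitor cells (NSPCs) of mouse brain, 2 from wild-type cells (WT) and 2 from cells labelled Mina53-KO (KO), and poly(A) RNA sequencing of 3 WT and 3 KO libraries gave the RNA levels of the assigned genes. All samples carry the treatment label "non", and the CUT&Tag samples are also labelled as a cell line. The labels used here name no antibody, spike-in, strain, age or brain region, do not say how the KO was made, and do not say that libraries of a group came from separate animals or cultures, so a p-value here reflects library-to-library spread, which may be technical. RNA of Riox2, the gene of Mina53, was 19.96, 17.2 and 18.5 CPM (counts scaled by TMM to a common library total) in WT and 3.26, 3.78 and 3.70 CPM in KO, with every KO library below every WT library. The rule used the summed reads, so the height of these regions is a description and not a finding. Rank 500 held 714 reads, and 3 regions had that sum. The intronic region at Tcf7l2 was counted in by file order, and the regions at Abhd11 and Gm8091 fell just outside. The regions ranked just before and just after these 3 held 715 and 713 reads.

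CUT&Tag tethers a transposase to an antibody on chromatin, so that DNA beside the bound feature is cut and tagged. A strong region can be a gene promoter or enhancer with much of the target. It can also be a stretch that collects reads for other reasons, such as DNA without nucleosomes, or a sequence with more copies in the cell than in the reference. Mitochondrial DNA carries no histones and is present in many copies per cell. Mouse chromosomes have their centromere at the start, where satellite arrays are incompletely assembled, and unplaced scaffolds hold sequence that the assembly could not place on a chromosome. Mina53, encoded by Riox2, belongs to the JmjC family of oxygenases and, by the series title, removes methyl groups from arginine on histone H4. Blacklists of mouse high-signal regions exist, but none was applied here, and the repeat content and base composition of the regions were not measured.

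Sequence was at hand for the RefSeq promoters of the assigned genes (build GRCm38.p6, 250 bases before to 50 after the start), not for the regions themselves, whose coordinates are on GRCm39. Overlap of a region with these windows was therefore not measured. Shown are RefSeq promoters of the genes assigned to the 5 strongest regions within 1 kb of a transcription start site (TSS). Counted were genes that are named, have a RefSeq promoter and are not predicted or clone-named. Nes is added, as its region differed most between KO and WT. A window shown can belong to another start site of the gene than the one beside the region, so its sequence and composition describe the gene's RefSeq promoter only. Capitals mark matches, on either strand, to the GC box GGGCGG, the CCAAT box CCAAT, the ETS motif CCGGAAG or the YY1 motif. Where RefSeq lists 2 promoters, for Tatdn3 and Plcb4, the one that starts first is shown.
Tatdn3, chr1:191062861-191063160, minus strand, rank 77: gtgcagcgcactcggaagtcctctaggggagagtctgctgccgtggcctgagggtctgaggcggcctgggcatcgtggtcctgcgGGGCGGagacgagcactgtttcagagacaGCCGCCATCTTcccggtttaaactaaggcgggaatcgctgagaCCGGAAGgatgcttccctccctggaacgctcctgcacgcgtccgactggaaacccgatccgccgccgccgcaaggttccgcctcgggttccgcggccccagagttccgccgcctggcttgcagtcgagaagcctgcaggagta
Mpnd, chr17:56008951-56009250, plus strand, rank 132: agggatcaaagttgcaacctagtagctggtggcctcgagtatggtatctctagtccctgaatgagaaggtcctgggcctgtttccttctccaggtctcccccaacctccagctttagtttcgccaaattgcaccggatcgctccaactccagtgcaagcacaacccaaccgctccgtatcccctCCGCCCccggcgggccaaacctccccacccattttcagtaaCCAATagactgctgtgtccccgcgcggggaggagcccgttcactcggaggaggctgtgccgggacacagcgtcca
Plcb4, chr2:135659297-135659596, plus strand, rank 140: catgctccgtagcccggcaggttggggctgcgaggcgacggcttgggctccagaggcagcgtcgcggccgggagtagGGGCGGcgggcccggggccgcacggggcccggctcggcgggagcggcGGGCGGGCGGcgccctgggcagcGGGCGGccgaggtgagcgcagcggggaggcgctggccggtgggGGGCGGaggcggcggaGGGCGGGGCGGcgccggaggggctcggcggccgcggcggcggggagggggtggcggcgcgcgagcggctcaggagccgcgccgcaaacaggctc
Idua, chr5:108660081-108660380, plus strand, rank 185: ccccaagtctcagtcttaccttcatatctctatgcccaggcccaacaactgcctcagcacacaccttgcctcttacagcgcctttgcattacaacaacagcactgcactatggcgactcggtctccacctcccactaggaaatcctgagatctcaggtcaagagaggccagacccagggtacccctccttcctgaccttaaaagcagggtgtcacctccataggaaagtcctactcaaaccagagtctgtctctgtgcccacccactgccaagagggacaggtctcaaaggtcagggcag
Crtc1, chr8:70439524-70439823, minus strand, rank 189: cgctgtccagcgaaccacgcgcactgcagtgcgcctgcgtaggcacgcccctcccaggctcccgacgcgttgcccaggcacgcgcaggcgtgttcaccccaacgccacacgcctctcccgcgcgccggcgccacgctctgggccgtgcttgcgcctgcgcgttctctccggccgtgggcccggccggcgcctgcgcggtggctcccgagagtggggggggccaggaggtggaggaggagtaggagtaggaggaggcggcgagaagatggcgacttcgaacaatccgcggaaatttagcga
Nes, chr3:87970843-87971142, plus strand, rank 284: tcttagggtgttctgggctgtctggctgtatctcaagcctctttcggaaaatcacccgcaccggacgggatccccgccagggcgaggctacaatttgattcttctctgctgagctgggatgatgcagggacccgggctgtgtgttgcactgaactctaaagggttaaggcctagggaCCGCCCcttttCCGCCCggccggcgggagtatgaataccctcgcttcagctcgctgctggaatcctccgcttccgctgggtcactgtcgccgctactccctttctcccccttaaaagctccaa

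These windows differ in composition. The Plcb4 window was 84.0% G or C with an observed over expected CpG ratio of 1.03, and the Crtc1 window had a ratio of 1.04 with none of the searched motifs. The Idua window had a ratio of 0.147, and the second Plcb4 window, not shown, had a ratio of 0.204. Of the 103 named genes with a member region within 1 kb of the TSS, 65 matched the RefSeq table, with 89 promoters. The GC box was present in 73.0% of these 89, in 66.0% of the 1650 promoters of genes whose region ranked after the 500, down to rank 5000, in 58.4% of the 9927 promoters of genes with any region within 1 kb, and in 35.7% of all 32851 promoters. The CCAAT box was present in 41.6%, 41.6%, 38.6% and 37.4% of the same sets, and the TATA box TATAAA in 3.37%, 5.09%, 7.69% and 13.6%. In the same order of sets, the E-box CACGTG matched in 13.5%, 8.24%, 9.03% and 7.15%, and the ETS motif in 14.6%, 13.8%, 13.6% and 8.86%. The YY1 motif matched in 3 of the 89 (3.37%), and in 0.606%, 1.05% and 0.633% of the other sets. The overlapping Tatdn3 windows 1 and 2 are among the 3 and hold the same match. The cAMP response element TGACGTCA and the NRF1 and ZNF143 motifs matched in 0 of the 89. They matched in 2.42%, 1.70% and 0.727% for the next ranks, and in 1.79%, 0.971% and 0.277% of all promoters. At shares this low, 0 of 89 says little. The median CpG ratio was 0.69 in these 89, 0.71 for the next ranks down to 5000, 0.69 for genes with any region within 1 kb and 0.38 over all promoters. A match is a run of letters in the window and was not tested as a binding site.

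The 500 regions are 0.720% of the regions and held 1601369 of the 13447223 reads in regions, or 11.9%. Reads were concentrated at the top. The strongest region held 1.62%, the first 3 held 4.30%, the first 10 held 6.26% and the first 100 held 8.93% of all reads in regions. The other 490 regions together held less than the first 10. Sums fell from 217186 reads at rank 1 to 21746 at rank 10, 997 at the median and 714 at rank 500, against a median of 144 over all regions. The plot of summed reads against rank shows that drop.

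**Figure D1:**
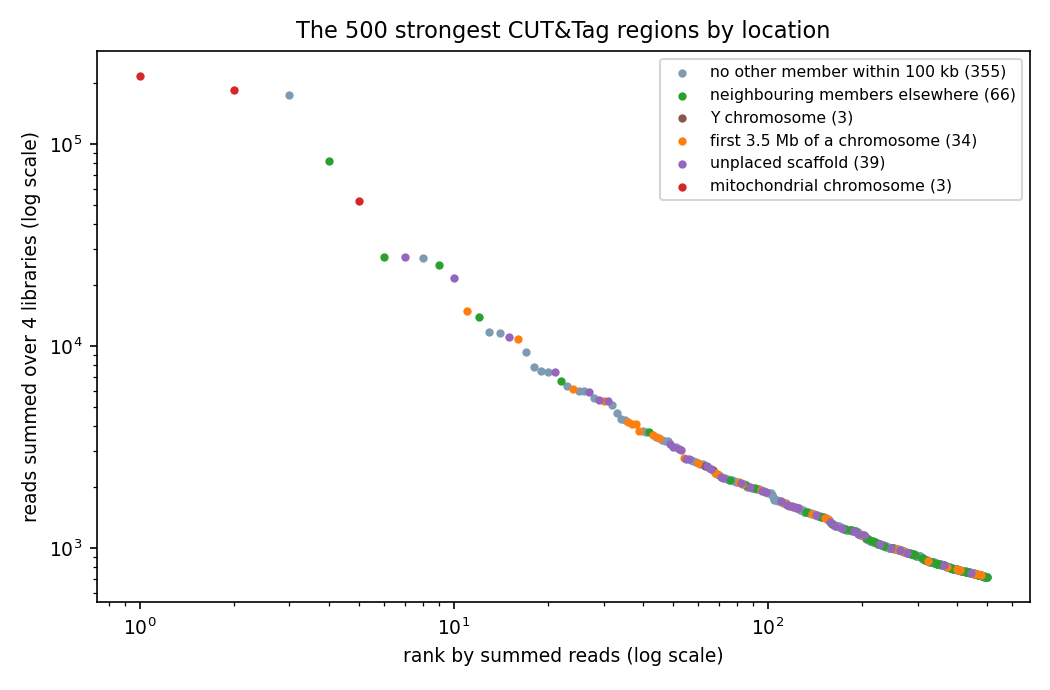
Reads summed over the 4 libraries (log scale) against rank (log scale) for the 500 strongest regions, each point a region coloured by location, with the number of regions in the key. The 3 mitochondrial regions sit at ranks 1, 2 and 5, and sums fall from 217186 to 714 reads.

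The first 10 lie in 5 places. The mitochondrial chromosome held ranks 1, 2 and 5, at 11038 to 16267, 1753 to 6451 and 33 to 1258, which the authors assigned to the transfer RNA genes mt-Th and mt-Tl1 and the ribosomal RNA gene mt-Rnr1. Each lies at 39535 to 42759 reads per kb of region. These 3 are all the regions of that chromosome in the table, and with 455384 reads they made up 28.4% of the reads of the 500. Rank 3 was chr17:40153857-40159739, the widest of the 500 at 5883 bp, with 175413 reads. Its assigned gene, ENSMUSG00000118642, has no symbol in the sources used here, and the next regions on either side start at 37581720 and 41191282. Ranks 4, 9 and 22 lie side by side at chr2:98492500-98497756, 61125 to 65157 bp from the assigned predicted gene Gm13806. The region of rank 4 had the highest density of all, 66815 reads per kb. Rank 6, at chr17:13772035-13773482, lies in an intron of 2700054A10Rik, and rank 8, at chr17:13524818-13526552, is intergenic with Gm36684 as the assigned gene. Ranks 7 and 10 lie on the scaffold MU069435.1, without annotation.

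By location, 39 of the 500 lay on unplaced scaffolds, 34 in the first 3.5 Mb of a chromosome, 3 on the Y chromosome and 3 on the mitochondrial chromosome. The boundary of 3.5 Mb was set after the positions were seen. Of the regions on scaffolds 31.5% were among the 500, and of the 291 regions in the first 3.5 Mb of a chromosome 11.7% were, against 0.655% of autosomal regions. JH584304.1 contributed 25 of its 37 regions and MU069435.1 contributed 9 of its 11. On the autosomes the share ran from 0.343% to 1.02% of a chromosome's regions, with 12 to 40 regions each. Chromosome 9 had 40, chromosome 8 had 38, and chromosomes 2 and 11 had 34 each. The X chromosome had 5 of its 549 regions and the Y chromosome 3 of its 9.

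Members lay closer together than the regions ranked just below them. Of the 500, 137 (27.4%) had another member within 100 kb, against 64, 73, 80 and 47 of 500 in the next 4 sets of 500 ranks. Within 10 kb the counts were 85 of the 500 against 23, 13, 6 and 8, and within 1 Mb 279 against 260, 297, 280 and 268, so the excess was at short distances. The 5 runs with most members were the 25 on JH584304.1, spanning 72.3 kb, then 13 at chr9:2999973-3038315, 9 on MU069435.1, 6 at chr11:3076982-3148221 around Sfi1, a spindle gene, and the pseudogenes Pisd-ps1 and Fau-ps2, and 4 at chr17:13770853-13875501. With scaffolds, the mitochondrial and Y chromosomes and the first 3.5 Mb left out, 80 of the then 500 strongest had a neighbour within 100 kb. That is as many as in the highest of the next 4 sets, from which these places were not left out.

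The run on chromosome 9 has the microRNA gene Mir101c as its assigned gene for all 13 regions, at 428 bp to 37744 bp from its TSS, and a region at chr9:110110218-110110536 (rank 98) lies on Mir6236. MicroRNAs act through their seed, bases 2 to 8 of the mature form, in capitals in these RefSeq sequences.
Mir101c (mmu-miR-101c): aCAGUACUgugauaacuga
Mir6236 (mmu-miR-6236): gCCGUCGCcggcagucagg

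The Mir6236 region was narrow and dense, 319 bp at 5937 reads per kb, with 146, 135, 136 and 146 CPM (read counts scaled by TMM to a common total of reads in regions) in WT 1, WT 2, KO 1 and KO 2. The chromosome 9 run reached 18992 reads per kb at chr9:3023961-3024742 (rank 11) and 1822 at its weakest member. Of the 500 regions, 20 were assigned to a gene that RefSeq classes as microRNA (4.00%, against 1.11% over all regions), 13 of them in the Mir101c run, and 54 to a pseudogene (10.8% against 8.27%). Protein-coding genes were assigned to 247 (49.4% against 56.0%), and 125 symbols were not matched. No symbol at all was given for 41 regions (8.20% against 0.246%).

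The 500 were wider than other regions, as a rule on summed reads favours. The median width was 884.5 bp (range 218 to 5883), against 793 bp in the next 500 ranks and 286 bp over all regions. Reads per kb separate them further, as the plot of width against density shows. Of the 500, 20 had more than 10000 reads per kb, and those 20 held 58.5% of the reads of the 500. A further 111 had 2000 to 10000, 182 had 1000 to 2000 and 187 had under 1000. Of the 144 regions of the whole table over 2000 reads per kb, 131 were among the 500. The median density was 41527 reads per kb on the mitochondrial chromosome, 3632 on scaffolds, 2823 in the first 3.5 Mb, 1102 for regions with neighbours elsewhere and 1042 for the 355 with no other member within 100 kb. Ranked by reads per kb, 229 of the 500 would remain.

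**Figure D2:**
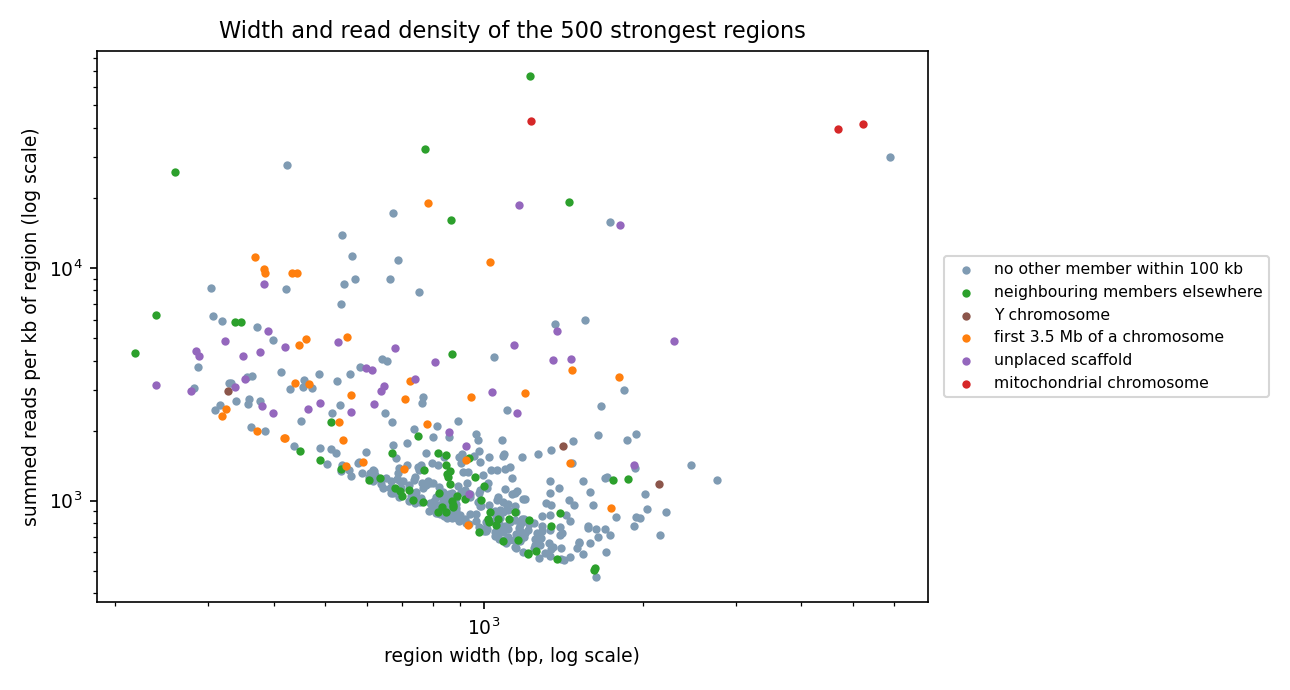
Summed reads per kb of region (log scale) against region width in bp (log scale) for the 500 strongest regions, coloured by location. The lower edge is set by the rule of at least 714 reads, and the 3 mitochondrial regions and rank 3 combine a density near 29817 to 42759 reads per kb with, for 3 of these 4, a width of 4699 bp or more.

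In the authors' annotation 154 of the 500 were intergenic, 149 intronic, 109 within 1 kb of a TSS, 29 at 1 to 2 kb, 21 at 2 to 3 kb, 11 exonic and 10 in a 3′ UTR, and 13 had none. The share within 1 kb was 21.8% (95% Wilson interval 18.4% to 25.6%), against 20.3% of all regions and 35.6% in the next 500 ranks. It differed along the list, with 4 of the first 10, 2.50% at ranks 11 to 50, 12% at ranks 51 to 100, 14.7% from there to rank 250 and 30.4% in the last 250. Intergenic regions were 40% at ranks 11 to 50 and 24.0% in the last 250. Of the 54 regions of the table with no annotation, 13 were among the 500. A called peak was marked in all 4 libraries for 479 of the 500 (95.8%), against 88.2% in the next 500 ranks and 10.0% over all regions. Of the 21 marked in fewer, 10 lay on scaffolds, and these 10 had reads in all 4 libraries. The Nes region was marked in 2.

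The density classes differ in the same way. Only 7 of the 111 regions at 2000 to 10000 reads per kb lay within 1 kb of a TSS, 65 of them being intergenic, whereas 41 of the 182 at 1000 to 2000 and 57 of the 187 under 1000 did. Of the 109 regions within 1 kb, 76 overlapped the TSS and 81 had no other member within 100 kb. Rank 3 apart, the other 80 of these lay at 618 to 5937 reads per kb with a median of 916, against a median of 550.0 over all 14090 regions within 1 kb.

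Leaving out predicted genes and genes without a symbol, the strongest regions within 1 kb after the mitochondrial 3 were those at Fau-ps2 (rank 45), Tap2 (rank 59), Tatdn3 (rank 77) and Mir6236 (rank 98). Tap2 encodes a subunit of the peptide transporter that loads MHC class I molecules, and its region, chr17:34420827-34422301, measured 203, 201, 196 and 194 CPM in WT 1, WT 2, KO 1 and KO 2. The Tatdn3 region, chr1:190782832-190784850, measured 150, 161, 171 and 159 CPM, with overlapping groups. The Mpnd region, chr17:56312767-56313005, was only 239 bp wide at 6297 reads per kb and measured 114, 93.1, 115 and 122 CPM. The region at Plcb4, which encodes a phospholipase C, measured 112, 111, 108 and 105 CPM at chr2:135830376-135831046. At Idua, which encodes the lysosomal enzyme alpha-L-iduronidase, the region chr5:108829973-108830990 measured 79.9, 94.5, 92.0 and 95.4 CPM. At Crtc1, which encodes a coactivator of CREB, the region chr8:70882753-70883601 measured 81.2, 105, 89.3 and 84.2 CPM. None of these 6 regions was called between KO and WT.

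Predicted or clone-named genes apart, each gene class by symbol held at most 26 of the 500. Small RNA symbols accounted for these 26 (5.20%, against 1.28% over all regions), 13 of them Mir101c. Pseudogene symbols ending in -ps accounted for 16 (3.20% against 1.05%). Immunoglobulin heavy chain symbols accounted for 2 (0.400% against 0.00864%). No histone or defensin gene had a region among the 500. Such genes hold only 0.0648% and 0.0216% of all regions, so 0 is near the background. Of the 2 symbols that match the ribosomal protein pattern (0.400%, against 0.617% over all regions), Rps2-ps5 is a pseudogene and Rps6kc1 encodes a kinase-related protein. Zinc finger symbols accounted for 5 regions (1.00% against 0.870%) and olfactory or vomeronasal receptor symbols for 4 (0.800% against 0.179%). All of these 4 carry symbols of vomeronasal receptor pseudogenes. Predicted or clone-named genes accounted for 161 (32.2%, against 40.4% over all regions). Of the 25 neural stem and radial glia genes listed, 21 had a region and only Nes had one among the 500, where its KO reads carried it (30.7 and 41.5 CPM in WT, against 55.3 and 56.8 CPM for the region of rank 500). Of 14 chromatin and arginine methylation genes and 14 ubiquitous control genes, 0 had one. The best rank was 598 for Carm1, an arginine methyltransferase gene, and 780 for Eef1a1, a translation elongation factor gene.

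RNA levels were read out for the genes of regions within 1 kb of a TSS. Of these 106 genes 105 were in the RNA table and 82 (78.1%) passed the filter on low counts, against 68.9% of genes with any region within 1 kb and 26.8% of all genes. Their median WT level was 8.80 CPM per kb of transcript (quartiles 0.764 and 22.9), against 4.10 (0.0459 and 17.5) for genes with any region within 1 kb. Among the genes that passed the filter these medians were close, 11.5 and 10.7. For genes of intronic and intergenic members the median was 0.0319, and 114 of 257 passed the filter. Among those 114 it was 6.38, against 7.51 for all genes that passed. Genes of all intronic and intergenic regions were not read out.

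The next comparison asked whether the share of reads in the strongest regions differed between KO and WT. It was 12.1% and 11.6% in the 2 WT libraries and 11.8% and 12.1% in the 2 KO libraries, with overlapping groups (mean 11.8% ± 0.405 and 11.97% ± 0.179, SD, n = 2 each; exact permutation p = 1, two-sided). With 2 against 2 libraries the smallest p this test can give is 0.333, so no share below can pass 0.05. The 3 mitochondrial regions held 3.12% and 3.05% of reads in regions in WT and 3.60% and 3.67% in KO, a ratio of 1.18, with both KO libraries above both WT libraries (exact permutation p = 0.333). With these 3 left out of members and of the total, the share of the rest was 0.389 percentage points lower in KO (a difference of -0.389). The chromosome 2 run held 0.970% and 0.930% in WT and 0.722% and 0.802% in KO, a ratio of 0.802. The chromosome 9 run held 0.422% in each WT library and 0.311% and 0.359% in KO, a ratio of 0.795. Members in the first 3.5 Mb of a chromosome held 0.807% and 0.752% in WT and 0.628% and 0.671% in KO, a ratio of 0.833. Scaffold members held 1.16% and 1.05% in WT and 1.00% and 1.04% in KO, also without overlap. For each of these 4 sets the exact permutation p was 0.333. Taken alone, the scaffolds with most members overlapped between genotypes. JH584304.1 held 0.560% and 0.479% in WT and 0.486% and 0.468% in KO. MU069435.1 held 0.523% and 0.520% in WT and 0.465% and 0.522% in KO (exact permutation p = 0.667 for each). Ranks 11 to 500 within 1 kb of a TSS held 0.825% and 0.840% in WT and 0.737% and 0.761% in KO, a ratio of 0.900 (exact permutation p = 0.333). The region of rank 3 held 1.29% and 1.21% in WT and 1.30% and 1.41% in KO, the lower KO library being just above the higher WT library. Reads in regions were 5.61% to 6.10% of the library totals, with overlapping groups, and numbered 3125267 and 2913959 in WT and 4038765 and 3369232 in KO. Over library totals the 500 held 0.680% and 0.705% in WT and 0.714% and 0.737% in KO, where the groups did not overlap (exact permutation p = 0.333).

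**Figure D3:**
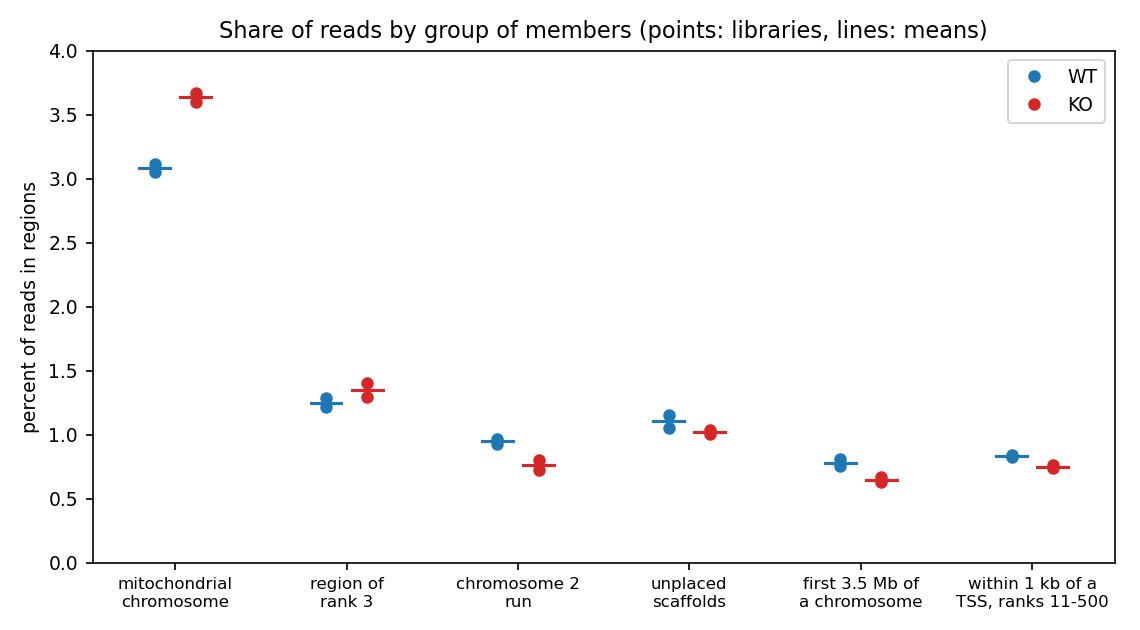
Percent of reads in regions held by 6 groups of members, each point a library (2 WT, 2 KO) and each line a group mean. The mitochondrial share is at 3.05% and 3.12% in WT and at 3.60% and 3.67% in KO, and the chromosome 2 run is lower in both KO libraries.

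Region by region, all 500 passed the filter and were tested in the fit of all 69209 regions. At an adjusted p under 0.05, 3 were called, 1 higher and 2 lower in KO, where 0.00722% of all tested regions (5 of 69209) were called. The authors' deposited table has a q-value under 0.05 for 0 of the 500. At an unadjusted p under 0.05, 87 of the 500 (17.4%) passed, against 5.35% of all regions, 11.2% in the next 500 ranks and 4.18% beyond rank 20000. Tests of regions with more reads have more power, and the part of power in these shares was not tested. Both KO libraries lay below both WT libraries at 181 of the 500 and above at 49, where the shares over all regions are 17.8% and 16.9%. In the next 500 ranks the counts were similar, 159 below and 58 above.

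The median log2 fold change of the 500 was -0.10, with 339 lower and 161 higher in KO, against 0.01 over all regions. The ranks next to them were alike, with medians of -0.09 in the next 500 ranks and -0.09 from there to rank 5000. Scaling to library totals in place of TMM put the median of all regions at 0.08 and that of the 500 at -0.03, with 271 lower and 229 higher. By location the medians were 0.21 for the 3 mitochondrial regions, -0.21 on scaffolds (37 of 39 lower), -0.24 in the first 3.5 Mb (29 of 34 lower), -0.27 on the Y chromosome (3 of 3 lower) and -0.06 for the 355 regions with no other member within 100 kb (217 lower). With library totals the last became 0.02, with 165 lower, while the other medians kept their sign. The 109 regions within 1 kb of a TSS had a median of -0.17 with 85 lower, and of -0.10 with 75 lower under library totals. Without WT 1 the scaffold median was -0.08 with 26 of 39 lower, and that of the first 3.5 Mb -0.14 with 22 of 34 lower. Of the 39 scaffold regions, 25 lay within 72.3 kb of JH584304.1 and 9 within 31.1 kb of MU069435.1. Their directions are therefore not separate observations. The 13 regions of the chromosome 9 run were all lower in KO in each of the fits and leave-outs run (median -0.36). They lie within 38.3 kb, and the fits reuse the same libraries, so these directions are not separate observations either.

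**Figure D4:**
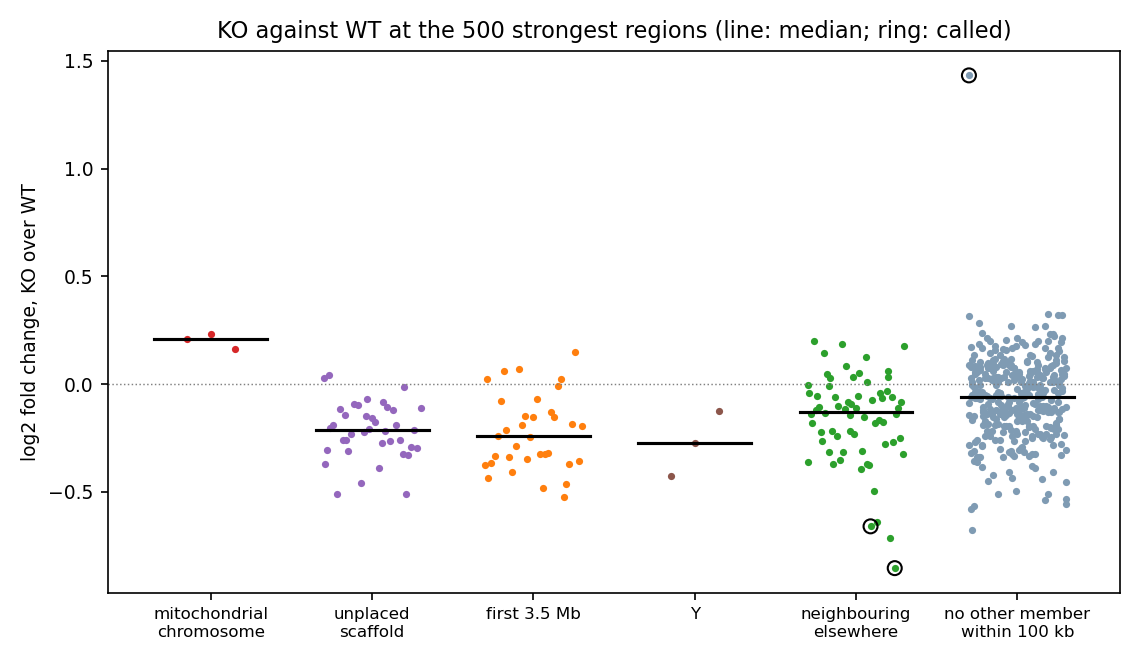
Log2 fold change, KO over WT, of each of the 500 strongest regions by location, with the group median as a line and a ring around the 3 called regions. The 3 mitochondrial regions lie above 0, and 37 of 39 scaffold regions lie below it. Of these 39, JH584304.1 holds 25 and MU069435.1 holds 9.

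The call with the largest change was at Nes, the gene of the intermediate filament nestin, a marker of neural stem cells. The region chr3:87881207-87882075 (rank 284), 2771 bp from the TSS, had 95 reads in WT 1, 120 in WT 2, 368 in KO 1 and 355 in KO 2, with both KO libraries above both WT libraries (log2 fold change 1.43, SE 0.17, adjusted p = 4.58e-13). It was called without each library in turn. Its CPM were 30.7 and 41.5 in WT and 89.8 and 105 in KO, against 55.3 and 56.8 in WT for the region of rank 500, so it was below that region in both WT libraries and is among the 500 through its KO reads. The reads that chose it are the reads tested, and its place in the list is no support for the call. Other regions assigned to Nes lay outside the 500 and were not called. The region on the TSS (rank 6772) measured 15.8 and 15.6 CPM in WT and 32.2 and 26.1 CPM in KO (log2 fold change 0.90, SE 0.25, adjusted p = 0.348, edgeR). The region 11192 bp away (rank 7346) had -0.11 (SE 0.24, adjusted p = 0.971). Nes RNA was 843, 581 and 721 CPM in WT and 1147, 1072 and 842 CPM in KO (log2 fold change 0.51, SE 0.17, adjusted p = 0.183, edgeR), with the lowest KO library just under the highest WT library.

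The other calls lay in a stretch of chromosome 8 from 19.8 to 21.1 Mb with 9 of the 500, named here after its values were seen. At Gm7760, chr8:19757117-19757965 (rank 159) measured 127 and 137 CPM in WT and 70.7 and 75.3 CPM in KO (log2 fold change -0.85, SE 0.14, adjusted p = 4.49e-05). At Gm7807, chr8:20060834-20062709 (rank 69) measured 228 and 205 CPM in WT and 137 CPM in both KO libraries (-0.66, SE 0.13, adjusted p = 0.00226). Neither was called without KO 1 (adjusted p = 0.232 and 0.455) or without KO 2 (0.0627 and 0.518), and the Gm7807 region was not called without WT 1 (0.0971). Of the other 7, Gm56829 had 90.2 and 77.2 CPM in WT and 55.1 and 46.5 CPM in KO (-0.72, adjusted p = 0.074), and Gm21112 had 120 and 106 against 78.5 and 66.1 (-0.64, adjusted p = 0.0781). Both were called with the replicate number as a block (adjusted p = 0.0396 and 0.0461) and without WT 2 (0.0265 and 0.0307). In all, 8 of the 9 were lower in KO, 7 of them with both WT libraries above both KO libraries, and the median was -0.64. The 9 held 0.0962% and 0.0878% of reads in regions in WT and 0.0653% and 0.0643% in KO, a ratio of 0.704. For the 96 weaker regions of the same stretch and its flanks, from 19 to 21.5 Mb, the ratio was 0.706. The other 29 members on chromosome 8 had a median of -0.09 and a ratio of 0.953. The 9 were assigned to predicted and clone-named genes and the weaker regions also to Potefam3 family genes and to the defensin gene Defa21. The sources used here do not say how the authors placed reads that map to several copies.

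**Figure D5:**
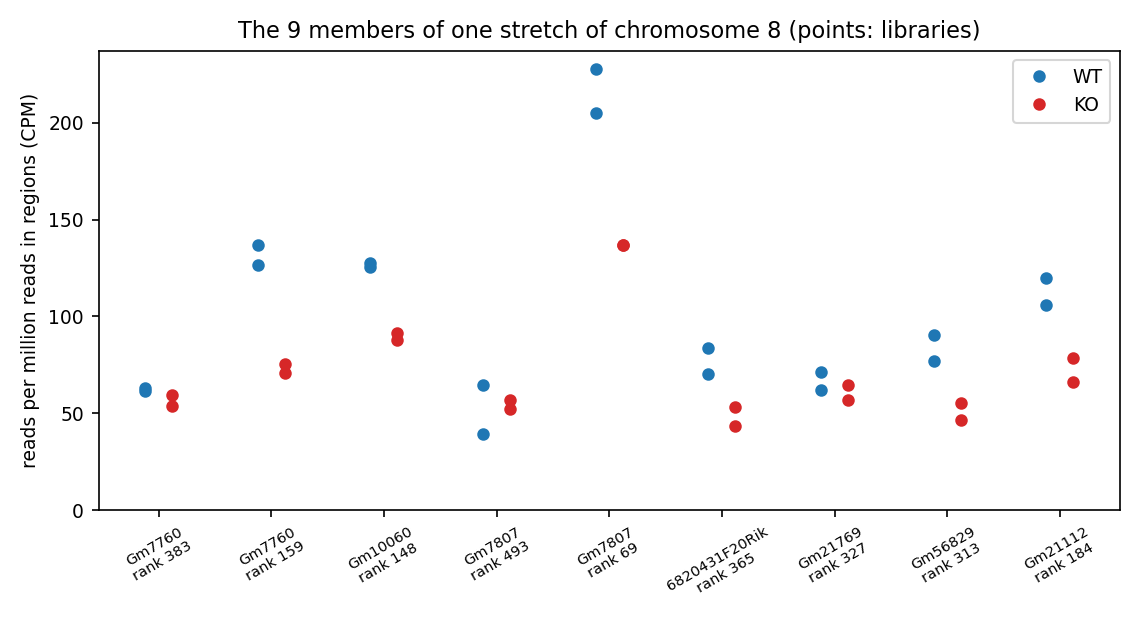
CPM in each of 2 WT and 2 KO libraries for the 9 members of the chromosome 8 stretch, in order along the chromosome, labelled by assigned gene and rank. In 7 of the 9 both WT libraries lie above both KO libraries, with 228 and 205 against 137 CPM for the Gm7807 region of rank 69.

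Among the strongest 10, none was called. The regions at mt-Tl1 and mt-Th measured 12740 and 12465 CPM, and 15056 and 14688 CPM, in WT, against 14511 and 15078, and 16901 and 17458, in KO, with both KO libraries above (log2 fold changes 0.23, SE 0.07, and 0.21, SE 0.07; adjusted p = 0.673 and 0.771). They were called with DESeq2 (adjusted p = 2.81e-05 and 7.06e-05) and with library totals (0.0064 and 0.0225). The region of rank 4 on chromosome 2 measured 7087 and 6830 CPM in WT and 5039 and 5791 CPM in KO (-0.36, SE 0.08, adjusted p = 0.074), and was called with DESeq2 (0.00058) and without robust dispersion (0.000116). The regions of ranks 6 and 8 on chromosome 17 did not part by genotype. They measured 2335 and 2424 CPM in WT 1 and 2212 and 2181 CPM in KO 1, against 1737 and 1670 in WT 2 and 1884 and 1767 in KO 2. At 14 of the 500 the ratio of replicate 1 to replicate 2 passed 0.3 on the log2 scale in both genotypes, in the same direction at 12 and in opposite directions at 2, at Lnpep and at a Mir101c region. The furthest was a region at the pseudogene Vmn1r-ps60, with 88.0 and 51.7 CPM in WT 1 and KO 1 and 42.6 and 35.3 CPM in WT 2 and KO 2.

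The last comparison asked whether RNA of the assigned genes differed between KO and WT. Summed levels of 9 neural stem and radial glia markers were 6841 to 7152 CPM in WT and 7369 to 8322 CPM in KO, and those of 4 endothelial and pericyte markers 0.946 to 1.39 CPM and 1.79 to 2.27 CPM, both sets without overlap. Those of 5 oligodendrocyte lineage markers were 19.2 to 19.4 CPM in WT and 15.0 to 18.5 CPM in KO, also without overlap, of 4 astrocyte markers 1024 to 1331 and 912 to 1134 CPM, and of 6 intermediate progenitor and neuron markers 526 to 729 and 672 to 941 CPM. The part of these differences in the RNA results was not tested. Of the 4 endothelial and pericyte markers, Pecam1, Cdh5 and Cldn5 did not pass the filter on low counts, and their summed level is near the floor. Sums were at most 0.576 CPM for 5 microglia markers and at most 0.0831 CPM for 3 erythroid markers. The mitochondrial share of RNA counts was 2.31% to 2.68% in WT 1, KO 1 and KO 2 and 3.52% to 5.71% in the other 3 libraries, and its part in the RNA results was not tested. Over all genes 3.43% (525 of 15298) were called. Of the 82 tested genes of regions within 1 kb, 2 were called, both higher in KO, and the median log2 fold change was 0.01, so the share of 2.44% was near the background.

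The 2 genes were Mroh2a and Pde9a, a cyclic GMP phosphodiesterase gene. Mroh2a RNA was 11.2, 10.9 and 11.3 CPM in WT and 18.2, 15.9 and 17.2 CPM in KO (log2 fold change 0.62, SE 0.12, adjusted p = 0.0338, edgeR), while its region (rank 447) had -0.27 (SE 0.17, adjusted p = 0.933). Pde9a RNA was 12.2, 9.37 and 9.41 CPM in WT and 16.4, 16.7 and 16.9 CPM in KO (0.69, SE 0.15, adjusted p = 0.0451), and its region, the last but one of the 500, had 0.04 (SE 0.17). Neither group pair overlapped, but with the replicate number as a block, and without WT 2, WT 3, KO 1 or KO 2, 0 of these genes were called. Neither Mroh2a nor Pde9a was called without KO 3 (adjusted p = 0.0635 and 0.0699), and Mroh2a was not called without WT 1 (0.0735).

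Over the genes of all members, 12 of 225 tested genes were called (5.33%), 4 higher and 8 lower. The furthest was Cdk6, which encodes a G1 cyclin-dependent kinase. Its RNA was 9.54, 11.9 and 9.68 CPM in WT and 45.4, 48.0 and 60.1 CPM in KO (log2 fold change 2.30, SE 0.16, adjusted p = 0.000368), while its intronic region, 32242 bp from the TSS (rank 116), had 0.15 (SE 0.14). Erdr1y RNA was 103, 89.0 and 99.4 CPM in WT and 55.3, 58.7 and 48.1 CPM in KO (-0.85, SE 0.12, adjusted p = 0.00907), and its intronic region on the Y chromosome (rank 63) measured 231 and 210 CPM in WT and 159 and 169 CPM in KO (-0.43, SE 0.12, adjusted p = 0.469). None of the 12 genes had a called region.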

How the data were processed

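CUT&Tag was measured in 2 WT and 2 KO libraries and poly(A) RNA in 3 WT and 3 KO libraries. The deposited CUT&Tag table gives per region the authors' read counts, RPM, log2 fold changes, p-values, q-values, annotation and peak marks per library, per the file headers, with RPM matching a count plus 1 over a library total. The deposited RNA table gives the authors' expected counts per gene, which are partly not whole and were rounded here. Coordinates are on GRCm39, and HISAT2 and StringTie are named without versions, per the submitters' processing notes. The peak caller, the counting tool and the treatment of reads with several placements do not appear in the sources used here. No genome of this build was at hand, so the planned sequence, base composition and repeat measures of the regions were not run.

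Members were ranked by the sum of the 4 counts, with ties in file order. Symbols were taken from the table or, for the 246 members without one there, by gene identifier from a name table, and 459 have one. Counts were tested with edgeR 4.0.16 in R 4.3.3 (TMM scaling, filterByExpr, robust quasi-likelihood test, Benjamini-Hochberg adjustment over all regions or genes, threshold 0.05) on the libraries of one assay. Shares were tested with exact permutation tests, two-sided (scipy 1.17.1), and intervals cover counting error only. In RNA the CPM are also TMM-scaled. The fit was tested on simulated data with known changes. Alternatives were DESeq2 1.42.0, other scalings, filters, dispersion settings and definitions of the members, a replicate block and leaving out each library.

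Regions named are the 10 strongest, the 2 strongest of each annotation class, those at the boundary, all called and, per direction, the 5 of lowest p, the 5 strongest within 1 kb of a TSS of a gene that is not predicted, the 5 densest and the 5 largest runs. Of these the text gives the ones the results turn on. Genes named from RNA are those of named regions and those called. The members, gene lists and markers were chosen with earlier results of these data known, and the location classes, the chromosome 8 stretch and the regions whose replicates part were chosen after their values were seen.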

Additional observations from a re-analysis of the deposited data

How the results depend on the processing

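The count of called members was 3, where 5 regions were called in all. It was 6 with DESeq2 (7 in all) and 5 with the replicate number as a block (replicate block, 9 in all). For members ranked by reads per kb it was 1. When a library was left out, the median log2 fold change of the members ran from -0.11 to -0.06. Nes was called in every fit run. Gm7807 was not called with library totals (adjusted p = 0.05). The labels do not say that replicate numbers pair libraries, and the data do not settle it for CUT&Tag, where the correlation of replicate 1 minus replicate 2 between WT and KO was 0.0155 over all regions and 0.194 over members. In RNA the deviations of same-numbered libraries correlated at 0.46, -0.37 and 0.27. The share of reads was 10.4% for the 250 and 14.3% for the 1000 strongest, 10.8% for members by reads per kb, 10.3% without the strongest region, 8.82% without the mitochondrial regions and 0.710% of library totals. Its KO minus WT difference of 0.127 percentage points became -0.131 without the strongest region, -0.389 without the mitochondrial regions (chosen after seeing the data), and -0.159 to 0.414 when a library was left out. The count of called RNA genes of regions within 1 kb, 2, was 4 with DESeq2, 0 with the replicate block (where 229 genes were called in all, against 525; 958 with DESeq2), 0 to 3 when a library was left out (145 to 506 in all) and 12 for genes of all members. Members with a neighbour, 137, numbered 85 within 10 kb, 279 within 1 Mb and 80 on chromosomes 1 to 19 and X beyond the first 3.5 Mb, an alternative added after seeing the data. The share within 1 kb of a TSS, 21.8%, was 13.2% for the 250 and 28.7% for the 1000 strongest and 18.2% by reads per kb. Among the strongest 10, none of them called with edgeR as reported, 4 changed sign: when a library was left out, rank 6 ran from -0.19 (without WT 2) to 0.24, and was -0.11 without KO 1, rank 7 from -0.033 (without KO 2) to 0.084, rank 8 from -0.30 to 0.24 (without WT 1), with 0.091 without KO 2, and rank 10 from -0.24 to 0.062 (without KO 1), while rank 8 was 0.035 with library totals. The cause of these changes was not tested. A CUT&Tag group left with 1 library was assumed to vary like the other. The planned genome measures were not run. The member of rank 500 had 164 to 205 reads per library, and what depth limits was not tested.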
